A study of Oryza sativa with 239 samples.

Results

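The transcripts described here are those of 7 rice genes listed by identifier as abscisic acid (ABA) receptors of the PYL family, out of 55986 gene identifiers measured in leaves. Whether the list holds every receptor of the family in rice was not examined, so counts and shares below refer to these 7 genes alone. ABA is the hormone that plants make in larger amounts when water is short. PYL receptors (also called PYR or RCAR) bind it inside the cell, and the bound receptor blocks the clade A PP2C phosphatases. SnRK2 kinases, which these phosphatases hold inactive, are thereby freed to act on ion channels and bZIP transcription factors. In leaves this pathway is best known for closing stomata and switching on drought-response genes. In Arabidopsis, transcripts of several receptors of the family are known to decline after ABA treatment. Neither the count table nor the reference at hand gives the 7 identifiers individual names, so each is described by its identifier and none is given a role of its own within the family.

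Leaves came from 40 rice cultivars and lines, each as drained plants (drought) and as irrigated plants (control), sampled on day 5 of the treatment. The lines were Dro1-NIL, IR64 (a widely grown indica variety), Koshihikari (a japonica variety), KP and 36 numbered accessions of the World Rice Core (WRC) collection, which samples the range of cultivated rice: WRC01 to WRC06, WRC09, WRC13, WRC15, WRC16, WRC18, WRC19, WRC21 to WRC25, WRC27, WRC28, WRC31 to WRC37, WRC42, WRC44, WRC46 to WRC48, WRC50, WRC51, WRC55, WRC57 and WRC100. Each had 3 libraries per treatment, except Dro1-NIL with 2 in drought. The sample labels call the drought moderate, whereas the treatment protocol describes a severe one with rewatering. The labels give separate replicates without saying that each was a separate plant, so p values measure the spread between libraries. The study's title names biomarker genes for how strongly rice perceives drought. A whole leaf holds several cell types, and fewer cells of a type cannot be told apart from less RNA per cell.

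Drought libraries held up to 59.5 megareads (M) assigned to genes (median 17 M), and control libraries 5.99 to 37.4 M (median 14.8 M). Under 1 M reads were found in 4 drought libraries (WRC02 replicate 2, WRC13 replicate 1, WRC28 replicate 3 and WRC47 replicate 3), and levels below are given without them. Drought libraries numbered 3 were the shallowest, at a median of 6.57 M, while control libraries of that number had 14.4 M. In WRC09, 110 genes were read at 5 CPM or more in all libraries of one treatment and at 0 in the other, against 0 such genes in each of the other cultivars. Genes that separate WRC16 from WRC15 lay midway in WRC16 drought replicate 2 (52.9% of the way to WRC15, a median) and WRC16 control replicate 3 (49.9%). WRC35 control replicate 3 lay 51.4% of the way to WRC36. The counts of calls are given with and without these libraries, and levels that include one are marked. The drought libraries and the control libraries carry 2 separate name series, and any effect of that division cannot be told apart from the treatment. Across the 2 series, libraries of the same cultivar and replicate carry the same running number.

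Of the 7 receptor genes, 5 passed the filter on low counts and were tested, and they spanned a wide range of read numbers. Levels are counts per megaread (CPM), scaled between libraries but not divided by gene length, so they compare libraries and not genes. LOC_Os02g15640, on chromosome 2, averaged 31 ± 6.63 CPM in drought leaves and 31.9 ± 7.89 CPM in control leaves (SD between cultivars, n = 40). LOC_Os10g42280, on chromosome 10, averaged 17 ± 3.23 CPM in drought leaves and 14.7 ± 2.78 CPM in control leaves. LOC_Os03g18600, on chromosome 3, averaged 11.4 ± 5.49 CPM in drought leaves and 10.1 ± 5.03 CPM in control leaves. None of these 3 genes was at 0 in a library of 1 M reads or more. LOC_Os06g36670, on chromosome 6, was weakly read, at 1.09 ± 0.645 CPM in drought leaves and 1.04 ± 0.812 CPM in control leaves. LOC_Os02g13330, also on chromosome 2, averaged 0.258 ± 0.169 CPM in drought leaves and 0.201 ± 0.144 CPM in control leaves, with 485 reads over all drought libraries and 361 over all control libraries.

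The remaining 2 genes were at or near 0 in these leaves. LOC_Os05g39580, on chromosome 5, had 26 reads in 16 drought libraries and 29 reads in 21 control libraries, or 0.0136 and 0.0163 CPM when pooled over each treatment. No library held more than 4 of them, and they came from 22 cultivars. LOC_Os01g61210, on chromosome 1, had 0 reads in the drought libraries, which allows up to 0.0016 CPM (3 reads over all of them, counting error only), and 4 reads in the control libraries. Of these 4 reads, 3 fell in WRC55 control replicate 1 and 1 in WRC04 control replicate 2. Neither gene passed the filter on low counts. With no filter, the edgeR adjusted p over the 40 cultivars was 0.69 for LOC_Os05g39580 and 0.14 for LOC_Os01g61210.

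Over the 40 cultivars, drought leaves held slightly more transcript of 2 of the 5 tested receptors, and none of the 5 changed by a fold of 2. LOC_Os10g42280 was higher in drought by 0.21 on the log2 scale (SE 0.04, a fold of 1.16, edgeR adjusted p = 9.1e-06), with a higher mean in 29 of 40 cultivars. LOC_Os02g13330 was higher by 0.41 (SE 0.14, edgeR adjusted p = 0.01), also in 29 cultivars, at levels of a few reads per library. In libraries of at least 1 M reads its highest value was 1.20 CPM in drought (WRC03) and 0.636 CPM in control (WRC05). Drought libraries of WRC32 (0.832 CPM), WRC09 (0.765 CPM) and WRC44 (0.754 CPM) also lay above that control value. The gene may thus have passed the filter on low counts through drought libraries alone, which was not tested. Its call in the main fit carries that limit. With no filter LOC_Os02g13330 stood at 0.42 (edgeR adjusted p = 0.016). These fits take single libraries as units. With counts summed per cultivar and treatment, the edgeR adjusted p was 0.0016 for LOC_Os10g42280 and 0.029 for LOC_Os02g13330. The count of 2 called receptors is no more than the table gives at large: 40% of the tested receptors were called, against 44.4% of the 28297 tested genes (21.7% higher and 22.7% lower in drought). Of the genes called, 49% were higher in drought with this scaling (TMM) and 68.7% with RLE size factors. Without WRC09, without the 4 libraries under 1 M reads, or without the 3 libraries midway between cultivars, 2 receptors were likewise called. With a fold of at least 2 as well, 0 of 5 receptors and 1.33% of all tested genes were called. The median size of change was 0.21 among the receptors and 0.13 among all tested genes, both on the log2 scale without sign.

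The other 3 tested receptors did not pass the threshold. LOC_Os03g18600 differed by 0.16 (95% interval 0.02 to 0.31, edgeR adjusted p = 0.066), with a higher mean in drought in 25 cultivars. LOC_Os06g36670 differed by 0.23 (-0.02 to 0.47, edgeR adjusted p = 0.13), with a higher mean in 24. LOC_Os02g15640, the receptor with the most reads, differed by -0.03 (-0.09 to 0.03, edgeR adjusted p = 0.49), with a lower mean in 21 cultivars and a higher one in 19. The interval of this last gene is narrow, and over the 40 cultivars it leaves room only for a change far under a fold of 2. With RLE in place of TMM scaling, which moved the median of all tested genes by less than 0.1, its difference was 0.03, and LOC_Os03g18600 passed at 0.23 (edgeR adjusted p = 0.0093).

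**Figure D1:**
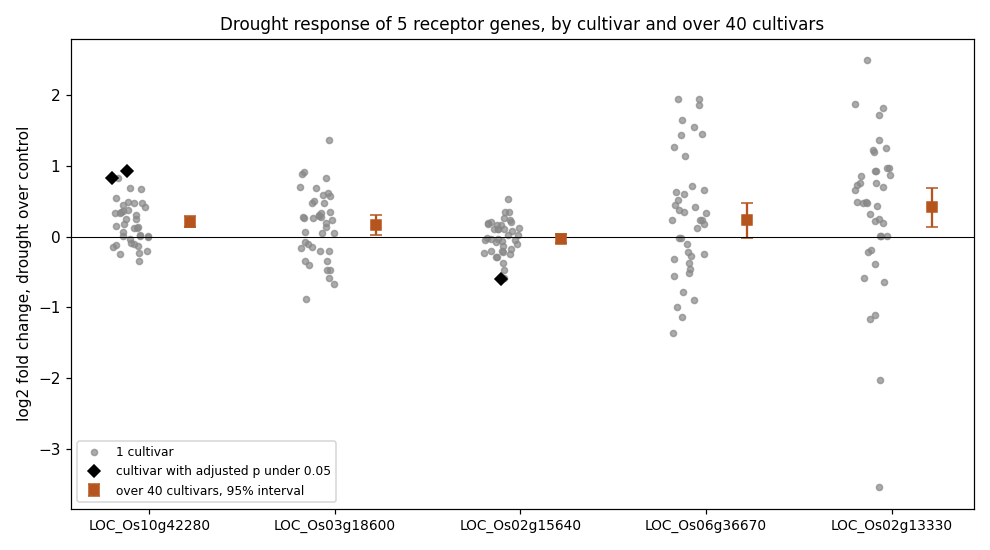
Log2 fold change of drought over control (vertical axis) for the 5 tested receptor genes. Grey points are single cultivars, black diamonds are the 3 cultivar responses with an adjusted p under 0.05, and orange squares are the fits over 40 cultivars with 95% intervals. The orange squares lie between -0.03 and 0.41, while single cultivars spread widely for the 2 weakly read genes at the right.

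The difference of LOC_Os10g42280 was near 0 in the libraries numbered 1. Between same-numbered libraries of at least 1 M reads, its mean log2 difference was 0.02 ± 0.44 for libraries numbered 1, with a higher value in 17 of 38 cultivars. It was 0.29 ± 0.44 for number 2, in 27 of 39, and 0.33 ± 0.39 for number 3, in 31 of 38 (SD between cultivars). Median levels of this gene were 15.5, 17.2 and 16 CPM in drought libraries numbered 1, 2 and 3, against 15.3, 14.2 and 12.9 CPM in control libraries. The control medians were lower in numbers 2 and 3 than in number 1, and the drought medians were not. LOC_Os02g13330 had differences of 0.04 ± 0.66, 0.05 ± 0.82 and 0.34 ± 1.16 for numbers 1, 2 and 3. All these differences use log2 CPM with a prior count of 2, which draws a gene of few reads toward 0. They are thus not the same measure as the edgeR estimates. When the libraries numbered 3 were left out, the edgeR estimate of LOC_Os02g13330 was 0.17 (edgeR adjusted p = 0.42), while LOC_Os10g42280 still passed at 0.15 (edgeR adjusted p = 0.013). For LOC_Os03g18600 the differences between same-numbered libraries were -0.04 ± 0.61, 0.06 ± 0.57 and 0.45 ± 0.84, and without libraries numbered 3 its edgeR estimate was 0.03. The part of the lower depth of drought libraries numbered 3 in these values was not tested, nor was the difference between replicate numbers.

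**Figure D2:**
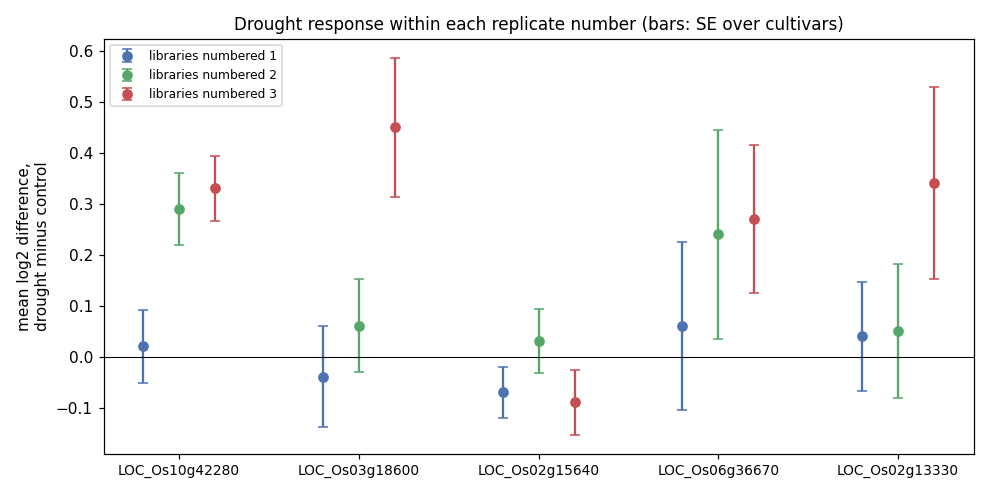
Mean log2 difference between drought and control libraries of the same replicate number (vertical axis) for the 5 tested receptor genes. Differences are of log2 CPM with a prior count of 2. Points are means over 38 or 39 cultivars and bars are standard errors; for LOC_Os10g42280 the libraries numbered 1 lie near 0 and the others near 0.3.

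Within single cultivars, 3 of 200 responses (5 genes in 40 cultivars) were called. This is 1.5%, against 0.923% of all gene and cultivar combinations tested. In WRC09, LOC_Os10g42280 stood at 16.9, 23.9 and 20.6 CPM in drought leaves, against 8.74, 10.7 and 12.8 CPM in control leaves. All drought values lay above all control values, a difference of 0.92 on the log2 scale (edgeR adjusted p = 0.004). WRC09 is the cultivar with 110 genes read in one treatment alone, whose part in this difference was not tested, and 17% of all tested genes were called in it. Without WRC09, LOC_Os10g42280 was higher over the remaining cultivars by 0.19 (edgeR adjusted p = 4.4e-05).

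WRC24 was the one cultivar with calls in opposite directions, in 2 different receptors. LOC_Os10g42280 stood at 23.5, 22.1 and 14.8 CPM in its drought leaves, against 13.3, 12.3 and 8.82 CPM in its control leaves, a difference of 0.82 (edgeR adjusted p = 0.021). LOC_Os02g15640 stood at 30.9, 31.9 and 29.3 CPM in its drought leaves, against 40, 50.2 and 49.9 CPM in its control leaves, a difference of -0.60 (edgeR adjusted p = 0.025). In both genes the groups did not overlap. In WRC24, 9.05% of all tested genes were called. Both WRC24 calls were lost when libraries of any one replicate number were left out and with edgeR on WRC24 alone, and that of LOC_Os02g15640 also with RLE size factors. With 2 libraries a side, the WRC09 call for LOC_Os10g42280 was kept without number 1 (0.90) and without number 3 (1.04) and lost without number 2.

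Counted by whether libraries of at least 1 M reads overlapped, LOC_Os10g42280 had the most separated cultivars of the 5 receptors. All its drought libraries lay above all its control libraries in 12 of 40 cultivars (30%), and all below in 0. Over the 5 receptors together, such a separation occurred in 12.5% of gene and cultivar combinations upward and 3.5% downward. Over all tested genes and cultivars, it occurred in 6.86% upward and 7.24% downward. The 12 cultivars were Dro1-NIL, IR64, Koshihikari, WRC01, WRC02, WRC04, WRC09, WRC21, WRC24, WRC31, WRC32 and WRC34. Dro1-NIL and WRC02 entered with 2 drought libraries each, where separation is easier. In IR64 the values were 18.3, 16.8 and 16 CPM in drought against 14.6, 13.5 and 12.3 CPM in control, and in WRC01 they were 19.8, 23.5 and 23.6 CPM against 13.9, 16 and 15.5 CPM. The other 4 tested receptors were separated upward in 1 (LOC_Os03g18600), 3 (LOC_Os02g15640), 5 (LOC_Os06g36670) and 4 cultivars (LOC_Os02g13330), and downward in 0, 4, 1 and 2.

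Several further responses were wide but did not pass the threshold. LOC_Os03g18600 in WRC33 stood at 5.93, 18.6 and 38.8 CPM in drought leaves, against 5.18, 12.7 and 5.94 CPM in control leaves (difference 1.37, edgeR adjusted p = 0.56), and the groups overlapped. LOC_Os06g36670 in WRC01 stood at 3.07, 2.22 and 2.20 CPM in drought leaves, against 0.529, 1.07 and 0.283 CPM in control leaves. There the groups did not overlap (difference 1.94), and the adjusted p was 0.19 in the shared edgeR fit but 0.027 with edgeR on WRC01 alone. WRC32 had the same fitted difference of 1.94 (edgeR adjusted p = 0.19, and 0.033 with RLE size factors), at 2.70, 0.333 and 0.416 CPM in drought against 0.516, 0.0611 and 0.342 CPM in control, and there the groups overlapped. In WRC15 the same gene lay the other way, at 1.08, 1.70 and 1.07 CPM in drought against 2.05, 5.94 and 1.98 CPM in control (difference -1.36, edgeR adjusted p = 0.38). For LOC_Os02g15640, WRC50 stood at 34.4, 35.8 and 24.1 CPM in drought against 41.5, 39.9 and 60.7 CPM in control (difference -0.59, edgeR adjusted p = 0.14). WRC16 lay opposite, at 33.1, 25.9 and 30.6 CPM in drought against 19.1, 18.3 and 25.2 CPM in control (difference 0.53, edgeR adjusted p = 0.31), and without the 2 libraries midway to WRC15 at 33.1 and 30.6 CPM against 19.1 and 18.3 CPM.

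The remaining strong responders were not called either. For LOC_Os10g42280, WRC04 stood at 17.5, 33.7 and 15.1 CPM in drought against 13, 14.2 and 10.5 CPM in control (difference 0.83, edgeR adjusted p = 0.12). The lowest differences of this gene were -0.34 in WRC05 and -0.25 in WRC57. For LOC_Os03g18600 the difference was 0.91 in WRC24, -0.88 in WRC55 and -0.67 in WRC35, where 1 control library lay midway to WRC36. For LOC_Os02g15640 it was 0.35 in WRC09, and for LOC_Os06g36670 it was -1.13 in WRC35 (edgeR adjusted p = 0.81). WRC35 stood there at 0.564, 0.793 and 0 CPM in drought against 2.98, 0 and 0.213 CPM in control, and the groups overlapped. The control value of 0.213 CPM is that of the library midway to WRC36. LOC_Os02g13330 stood at 0.336, 0.717 and 0.416 CPM in drought leaves of WRC33, against 0.07, 0.316 and 0 CPM in control leaves (difference 1.87, edgeR adjusted p = 0.69). In WRC55 this gene had 0 reads in drought, against 0.104, 0.151 and 0 CPM in control (edgeR adjusted p = 0.55), so no fold is given. Its fitted difference was higher in WRC34 than in WRC33, and WRC36 was the next lowest after WRC55. WRC34 had 0 reads of it in control and WRC36 had 0 in drought, so no fold is given for them either.

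The test of whether cultivars differed in their response called 0 of the 5 receptors with edgeR, against 3.87% of all tested genes. Unadjusted p values under 0.05 occurred in 2 of them, LOC_Os02g15640 (edgeR adjusted p = 0.14) and LOC_Os10g42280 (edgeR adjusted p = 0.23). Among all 28297 tested genes 3724 had an unadjusted p that low. With RLE scaling, LOC_Os02g15640 passed (edgeR adjusted p = 0.019). This test takes all cultivars at once and did not set WRC24 against WRC16, so whether their opposite directions differ was not tested. In LOC_Os10g42280 the difference was 0.33 in Dro1-NIL and 0.34 in IR64.

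All 5 tested receptors differed among the 40 cultivars in drought leaves and in control leaves, as did 96% and 95.1% of all tested genes, so this is the common state of the table. Adjusted p values from edgeR lay between 9.4e-12 (LOC_Os03g18600) and 0.00019 (LOC_Os10g42280) in drought leaves and between 5.9e-18 (LOC_Os02g15640) and 6e-05 (LOC_Os10g42280) in control leaves. The share of the variance of log2 levels that lay between cultivars was, for LOC_Os10g42280, 31.7% in drought and 35.6% in control, under the medians of 48.7% and 53.3% among the 6605 tested genes within a factor of 2 of its level. For LOC_Os02g15640 it was 43.8% in drought and 69.4% in control, against medians of 46.1% and 51.2% among 6519 genes of like level. LOC_Os03g18600 had 50.1% in drought and 52.1% in control, against medians of 51.5% and 55.8%. LOC_Os06g36670 had 28.4% in drought and 50.8% in control, against 58.9% and 63.1%, the widest gap to its median in drought among the 5. LOC_Os02g13330 had 32.5% in drought and 54.2% in control, against 50.4% and 56.5%. These shares are descriptions without a test.

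**Figure D3:**
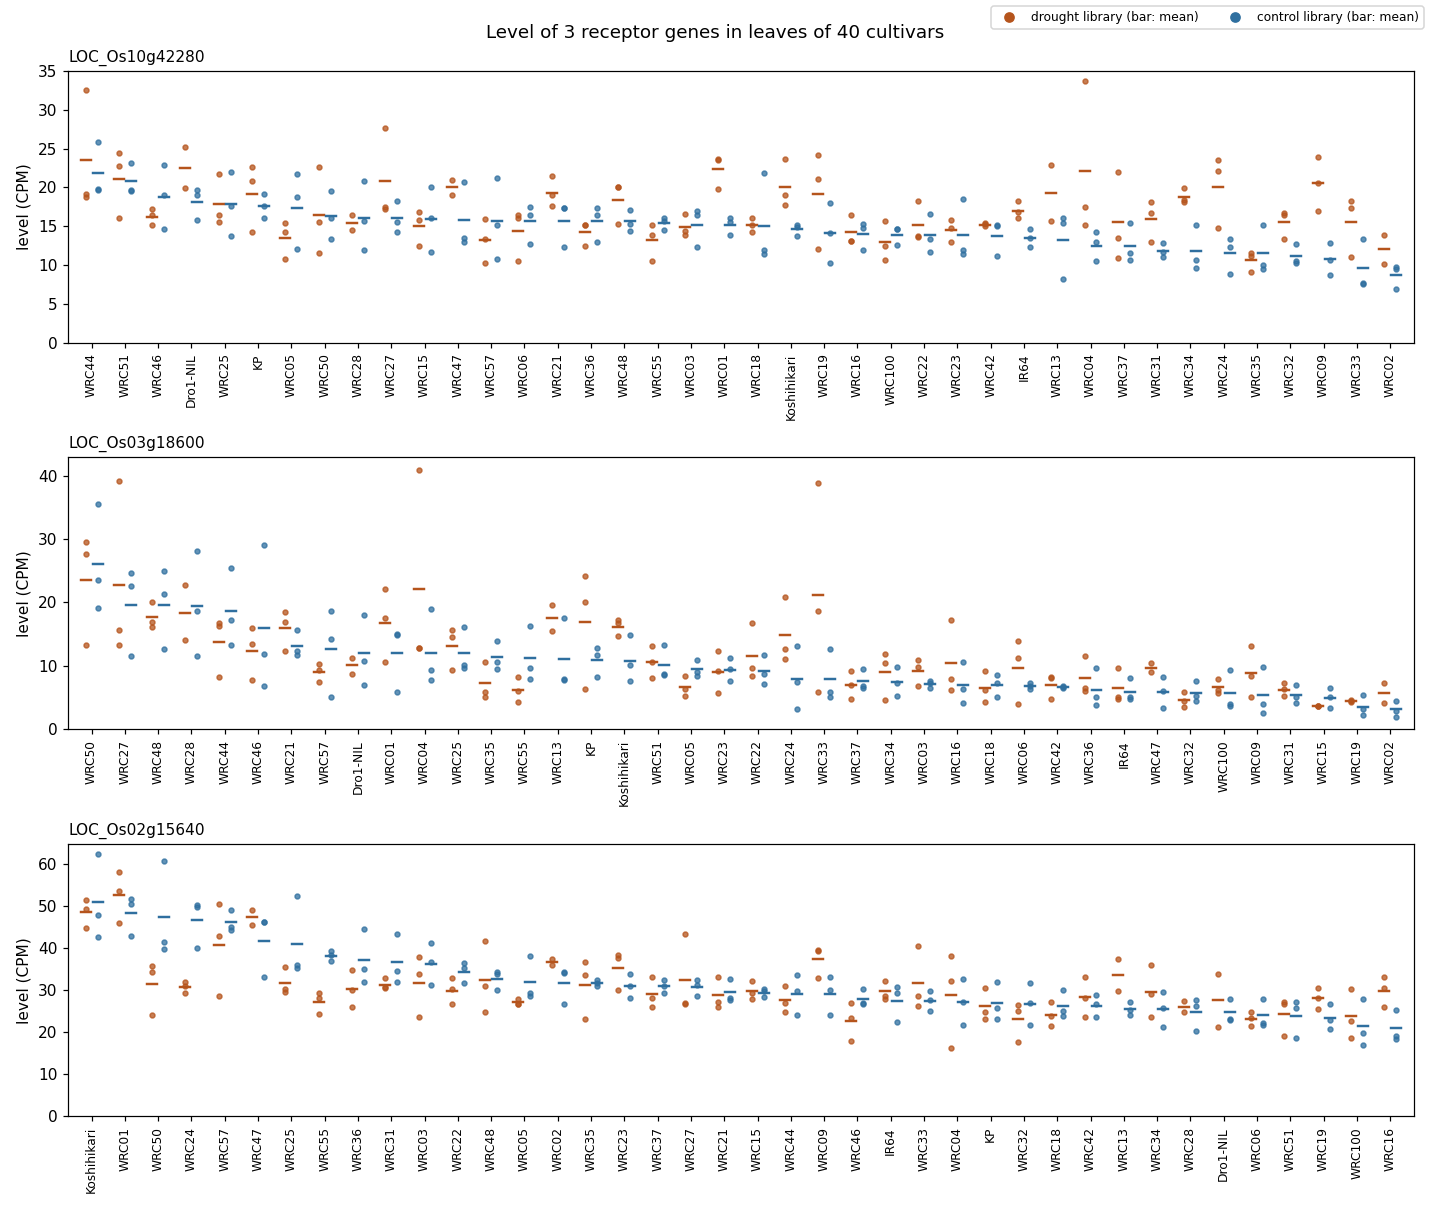
Level of 3 receptor genes in CPM (vertical axes, from 0) in drought libraries (orange, left of each pair) and control libraries (blue) of 40 cultivars, ordered in each panel by the control mean. Short bars are means of 2 or 3 libraries; the control means run from 21.8 to 8.7 CPM for LOC_Os10g42280, from 26.1 to 3.14 CPM for LOC_Os03g18600 and from 51 to 20.9 CPM for LOC_Os02g15640.

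LOC_Os02g15640 was highest in Koshihikari and WRC01, at 48.5 ± 3.31 and 52.6 ± 6.18 CPM in drought leaves and 51 ± 10.2 and 48.4 ± 4.82 CPM in control leaves (SD between libraries, n = 3, here and below, but n = 2 in drought for WRC02 and WRC47). WRC50 followed in control leaves, at 31.4 ± 6.39 CPM in drought and 47.4 ± 11.5 CPM in control. The lowest control levels were those of WRC16 at 20.9 ± 3.75 CPM, WRC100 at 21.5 ± 5.66 CPM and WRC19 at 23.4 ± 3.00 CPM. The control mean of WRC16 includes the library midway to WRC15 at 25.2 CPM, and its other 2 control libraries stood at 19.1 and 18.3 CPM. WRC16 had 29.9 ± 3.66 (with the other midway library), WRC100 had 23.8 ± 5.91 and WRC19 had 28.1 ± 2.40 CPM in drought. Between the highest and the lowest cultivar the means differed by a factor of 2.32 in drought and 2.44 in control.

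LOC_Os03g18600 had the widest order among the 3 better-read genes, with a factor of 6.3 between the highest and lowest cultivar in drought and 8.31 in control. WRC50 led in control leaves with 26.1 ± 8.44 CPM and stood at 23.5 ± 8.92 CPM in drought. WRC27 and WRC48 both averaged 19.6 CPM in control (SD 7.08 and 6.37) and stood at 22.7 ± 14.4 and 17.7 ± 2.14 CPM in drought. At the low end WRC15 had 3.73 ± 0.0257 CPM in drought and 4.98 ± 1.6 CPM in control, WRC19 had 4.41 ± 0.158 and 3.61 ± 1.67 CPM, and WRC02 had 5.70 ± 2.18 and 3.14 ± 1.31 CPM. All 3 control libraries of WRC50 lay above those of 34 other cultivars. This gene also varied strongly between libraries of one cultivar, as in WRC04, at 12.9, 40.9 and 12.8 CPM in drought and 7.76, 19 and 9.41 CPM in control.

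LOC_Os10g42280 spanned a range much like that of LOC_Os02g15640, with a factor of 2.22 between extremes in drought and 2.5 in control. WRC44 led with 23.5 ± 7.88 CPM in drought and 21.8 ± 3.59 CPM in control, followed in control by WRC51 (21.1 ± 4.46 and 20.8 ± 2.08 CPM) and WRC46 (16.2 ± 0.989 and 18.8 ± 4.14 CPM). The lowest in control were WRC02 (12 ± 2.65 CPM in drought and 8.70 ± 1.52 CPM in control), WRC33 (15.5 ± 3.99 and 9.55 ± 3.29 CPM) and WRC09 (20.5 ± 3.49 and 10.8 ± 2.05 CPM), the cultivar with 110 genes read in one treatment alone. In WRC44 and WRC51, the cultivars with the highest control levels, the drought differences were 0.12 and 0.01 on the log2 scale. In WRC46 and Dro1-NIL, next in that order, they were -0.21 and 0.33. The control level enters both the order and the difference, and a link between them was not tested.

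LOC_Os06g36670 was highest in Dro1-NIL, WRC15 and IR64 among control leaves. Dro1-NIL had 3.66 and 1.75 CPM in drought and 4.17, 4.17 and 1.89 CPM in control. IR64 had 4.40, 4.35 and 0.820 CPM in drought and 3.81, 3.33 and 1.44 CPM in control, and the ranges of these lines overlapped in both treatments. The lowest control means were those of WRC47 (0.786 ± 0.361 CPM in drought and 0.239 ± 0.122 CPM in control), WRC24 (0.151 ± 0.135 and 0.164 ± 0.0907 CPM) and WRC27 (0.327 ± 0.169 and 0.122 ± 0.147 CPM). LOC_Os02g13330 was highest in control leaves of WRC05 (0.191 ± 0.18 CPM in drought and 0.578 ± 0.0616 CPM in control), WRC19 (0.435 ± 0.162 and 0.505 ± 0.0745 CPM) and WRC37 (0.159 ± 0.155 and 0.492 ± 0.105 CPM). The lowest in control were WRC36 (0 reads in drought and 0.022 ± 0.0381 CPM in control), WRC100 (0.0405 ± 0.0702 and 0.0146 ± 0.0253 CPM) and WRC34 (0.0294 ± 0.0254 CPM in drought and 0 reads in control).

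When cultivars were ranked by control mean, 0 of the 39 neighbouring pairs were separated without overlap of their libraries for any of the 5 genes. In the drought order the same held, except for 1 pair in LOC_Os03g18600. That pair was WRC15, at 3.74, 3.70 and 3.75 CPM, and WRC19, at 4.42, 4.25 and 4.57 CPM, and the drought libraries of WRC15 lay below those of 38 of the 39 other cultivars.

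Cultivar levels in drought tracked those in control for 4 of the 5 receptors and less closely for LOC_Os10g42280. Over the 40 cultivar means of log2 CPM, the correlation was r = 0.75 for LOC_Os03g18600, 0.74 for LOC_Os06g36670, 0.68 for LOC_Os02g15640, 0.66 for LOC_Os02g13330 and 0.34 for LOC_Os10g42280. The median over all tested genes was 0.76, and 0.75 among genes of the level of LOC_Os10g42280. Each value uses separate libraries for the 2 treatments and is given as a description, and the difference between genes was not tested. Spread between libraries of one cultivar lowers r. The share of variance between cultivars of LOC_Os10g42280 was 31.7% in drought and 35.6% in control, against medians of 48.7% and 53.3% at like level. The part of this in its lower r was not tested. WRC09, the cultivar with 110 genes read in one treatment alone, is included. By mean CPM of LOC_Os10g42280 it ranked 38 in control and 7 in drought, and r without it was not computed.

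**Figure D4:**
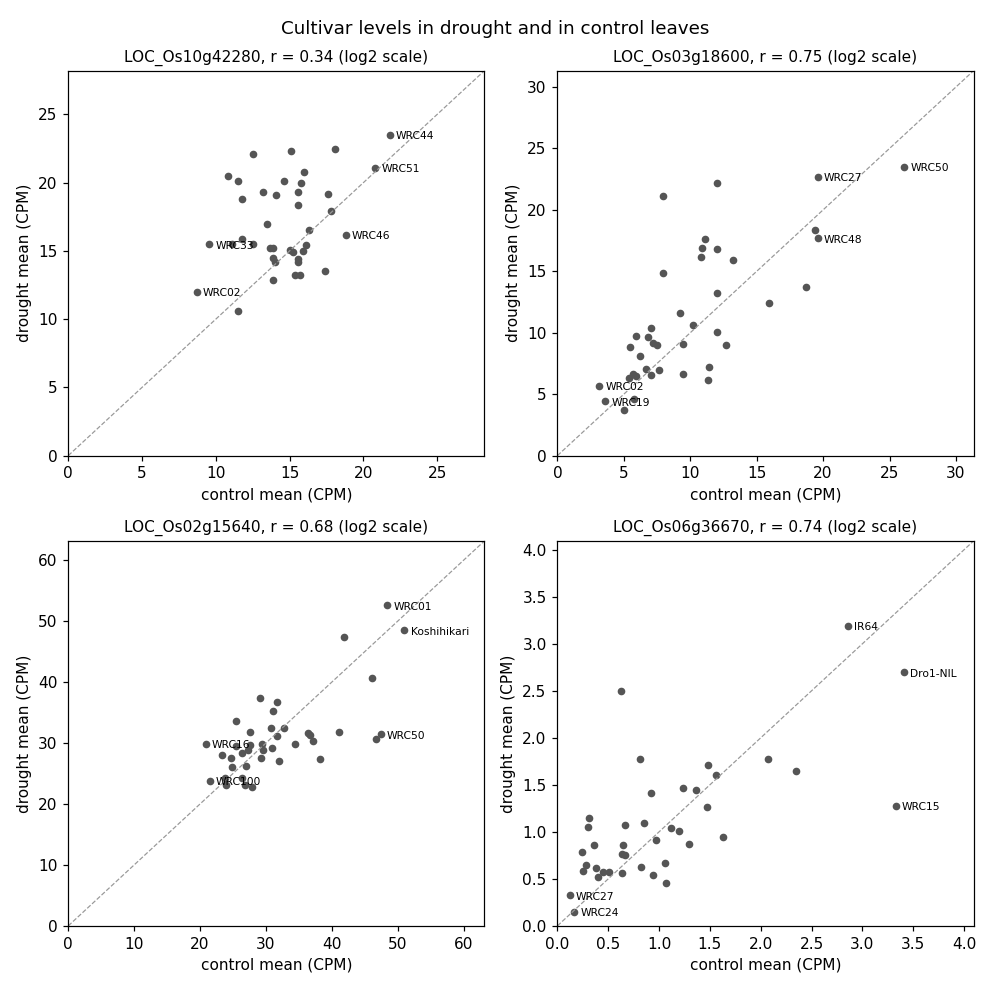
Mean level in drought leaves (vertical axes) against mean level in control leaves (horizontal axes), both in CPM, for 4 receptor genes. Each point is 1 of 40 cultivars and the dashed line marks equal levels; points of LOC_Os10g42280 (r = 0.34) scatter mostly above the line, and those of LOC_Os03g18600 (r = 0.75) spread along it.

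Among the receptors themselves, LOC_Os10g42280 and LOC_Os03g18600 were the pair whose cultivar levels resembled each other most. Their correlation over 40 cultivars was r = 0.52 (rho 0.54) in drought and r = 0.56 (rho 0.54) in control, and 0.49 in control without the 2 cultivars farthest from the median of LOC_Os10g42280. LOC_Os02g15640 and LOC_Os10g42280, the 2 genes with most reads, had r = 0.21 in drought and 0.02 in control. The remaining 8 of the 10 pairs lay between -0.18 and 0.42 in drought and between -0.15 and 0.27 in control. All pairs share their libraries, and these values are descriptions.

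Among 14606 genes with a mean of at least 5 CPM in control leaves, the gene whose control levels over the 40 cultivars were most like those of a receptor was sought. It was LOC_Os09g36930 for LOC_Os10g42280 (r = 0.74, and 0.47 in drought), LOC_Os10g36500 for LOC_Os03g18600 (0.75, and 0.58 in drought) and LOC_Os11g02620 for LOC_Os02g15640 (0.75, and 0.67 in drought). For LOC_Os06g36670 it was LOC_Os03g12900 (0.74, and 0.44 in drought). For LOC_Os02g13330 it was LOC_Os02g13304, whose identifier places it near the receptor on chromosome 2 (r = 0.66, and 0.69 in drought). The other 4 lie on another chromosome than their receptor. By the likeness of the drought response, LOC_Os06g44500 came first for LOC_Os10g42280 (r = 0.83), LOC_Os03g02330 for LOC_Os03g18600 (0.77), LOC_Os01g13740 for LOC_Os02g15640 (0.76), LOC_Os01g06280 for LOC_Os06g36670 (0.70) and LOC_Os12g40840 for LOC_Os02g13330 (0.55). Each is the highest of 14606 or 14607 values, so r is high by selection, and the control r of the first 4 genes was lower again in drought.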

How the data were processed

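The authors deposited raw read counts per gene model, 1 column per library, for strand-specific libraries of leaf polyA RNA. STAR and featureCounts 2.0.0 with build IRGSP-1.0 were used, per the submitters' processing notes. The annotation release, strand setting and treatment of reads with several positions are not given in the sources used here, so genes with near-identical copies are uncertain. The reference table paired 0 identifiers of the file with names, so the leaf label, other ABA genes and sequences were not examined.

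The tests used edgeR 4.0.16 under R 4.3.3, with DESeq2 1.42.0 as an alternative. Of 55986 genes, 28297 passed filterByExpr (minimum count 10). Libraries were scaled by TMM, and the dispersion trend was estimated on 2000 genes and interpolated. Drought was tested with cultivar as a term. Responses of single cultivars, their differences and the differences between cultivars came from a fit of 1 mean for every combination of cultivar and treatment, by glmQLFTest or an equivalent faster form (largest difference in p 9.9e-12 over 300 genes). P values were adjusted over all tested genes (Benjamini-Hochberg), and a gene was called under 0.05. SE is the log2 fold change over the square root of F, and intervals are 1.96 SE at 95%. Within-cultivar log2 values are edgeR fits to all libraries. CPM means use libraries of at least 1 M reads. Correlations, variance shares and differences between same-numbered libraries use log2 CPM with a prior count of 2. The fit was tested on simulated data.

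All 7 members are named. Cultivars named per tested gene are the 3 highest and 3 lowest in control leaves, those called, and the 2 highest and 2 lowest by log2 fold change, and cultivars beyond these were chosen after their values were seen. Members, lists and alternatives were chosen with earlier results of these data known.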

Additional observations from a re-analysis of the deposited data

How the results depend on the processing

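Of the comparisons over the 40 cultivars, LOC_Os10g42280 kept its direction and call under every alternative run except the requirement of a fold of at least 2, between 0.15 and 0.32. The count of 2 called receptors was 1 to 3 with one replicate number left out (1 without number 3, where LOC_Os02g13330 lost its call), 4 with DESeq2 on single libraries and 0 with a fold of at least 2 required. Without one replicate number LOC_Os02g13330 ran from 0.17 to 0.56 and LOC_Os03g18600 from 0.03 to 0.24. LOC_Os03g18600 passed at 0.23 with RLE size factors and at 0.24 with DESeq2, but stood at 0.08 with counts summed per cultivar. LOC_Os06g36670 passed at 0.31 with DESeq2. LOC_Os02g15640, never past the threshold, changed sign to 0.03 with RLE and to 0.02 with DESeq2. These 2 scalings moved the median of all tested genes to 0.057 and 0.086, and RLE moved the share of higher genes among those called to 68.7%, against 49% with TMM.

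The 3 calls in single cultivars became 5 with RLE, 6 with each cultivar fitted alone in DESeq2, 0 with a fold of at least 2 required and 0 to 1 without one replicate number. The call for LOC_Os10g42280 in WRC09 was lost without number 2 and, by construction, without WRC09 and with a fold of at least 2 required, and kept under the other alternatives run. In WRC24, that of LOC_Os10g42280 was lost without any one number and with edgeR on WRC24 alone, and that of LOC_Os02g15640 also with RLE and with no filter on low counts. The count of 0 receptors with a differing response became 1 with RLE. Differences among cultivars held for all 5 receptors, except LOC_Os06g36670 in drought without number 2 (edgeR adjusted p = 0.056). With the replicate block, 2 receptors, 3 single-cultivar responses and 0 differences of response were called. Replicate numbers were not taken to pair the libraries, since no label states a pairing. The library names do match, with the same running number for drought and control libraries of the same cultivar and replicate. Deviations of libraries with the same replicate number correlated between -0.76 and 0.63 (median 0.1), above 0.1 in 48.7% of pairs. The same replicate number was the best match in 48.7%, above an even share of 33.3%, which is a hint of pairing from the data. A fit paired by library name was not run. LOC_Os05g39580 and LOC_Os01g61210 were tested only with no filter on low counts, where neither was called in any comparison over cultivars. The causes of these changes were not tested.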
